A study of Mus musculus with 6 samples.

Results

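The 4 blastocyst arrays of the series were described on their own, as a record of which transcripts gave the brightest signals in blastocysts. Of the 6 single-colour arrays (Cy3-labelled amplified RNA), the other 2 held ooplasts, 1 from young and 1 from climacteric females, and served only as a reference for oocyte transcripts. All samples were of the B6C3 F1 strain. The blastocyst groups were young, with replicates 1 and 2, and climacteric, with replicates 1 and 2, and the design calls replicates biological. The labels used here give no age in numbers, leave the origin of the blastocysts unstated, and give no number of embryos behind each array. Replicate number coincided with slide for all 6 arrays, so replicate 1 and slide 1 cannot be told apart.

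Within each array the 43379 non-control spots, 41174 probes for 27591 gene names, were ranked by processed signal, and the brightest probe that was well above background on all 4 blastocyst arrays stood for its gene. In total 18833 probes passed, for 14307 genes, and the brightest 500 genes by mean rank are 1.81% of the 27591. A further 3983 genes were well above background on 1 to 3 arrays and 9301 on none. A rank orders probes by brightness, which depends on the probe as well as on the transcript, so it is not a count of molecules. Among 258 other probes counted for the brightest 500 genes, 184 were over 8-fold dimmer. Only 28 of the 258 had a mean rank no worse than the 500th gene. The choice of probe thus decides the place of many genes, also where this is not repeated below. In whole-embryo RNA, fewer cells of a type and less RNA per cell cannot be told apart. Levels are given as log2 of the processed signal minus the 75th percentile of the same array, so 0 is that percentile, and errors are SD over the 4 arrays (n = 4) unless a standard error (SE) is named.

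The blastocyst is the stage at which the outer trophectoderm, a transporting epithelium that later forms placenta, encloses the inner cell mass, which holds pluripotent cells and the primitive endoderm. Cdx2 is the transcription factor that specifies trophectoderm, keratins 8 and 18 (Krt8, Krt18) are its intermediate filaments, and Nanog marks the pluripotent cells. Oocyte transcripts are stored by the growing oocyte, are largely degraded after fertilisation, and are replaced by transcripts of the embryonic genome. The markers Cdx2, Lgals4, Fabp3, Krt18 and Nanog were all well above background on all 4 arrays. So were 42 of the 43 trophectoderm genes listed (97.7%), against 51.9% of all genes. The exception was Gcm1, a syncytiotrophoblast factor, which was well above background on 0 of the 4.

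The bases just before the start site are shown for the 5 markers, since their places in the ranking carry the lineage results. They are also shown for Khdc3, the one gene of the oocyte list among the brightest 500, and for Myl6, a myosin light chain at place 4. They are the 100 bases before the first listed start in RefSeq's promoter table (GRCm38.p6), 5′ to 3′ on the gene's strand, and capitals mark CCAAT, which reads ATTGG on the opposite strand.
Lgals4 (chr7:28833694-28833793, plus strand): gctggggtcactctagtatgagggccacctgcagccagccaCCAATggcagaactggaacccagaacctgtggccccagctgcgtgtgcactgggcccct
Cdx2 (chr5:147307250-147307349, minus strand): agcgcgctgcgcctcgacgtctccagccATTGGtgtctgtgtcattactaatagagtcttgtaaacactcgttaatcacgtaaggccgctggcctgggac
Krt18 (chr15:102028116-102028215, plus strand): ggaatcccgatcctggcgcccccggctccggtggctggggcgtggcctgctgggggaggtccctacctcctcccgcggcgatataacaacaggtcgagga
Fabp3 (chr4:130308638-130308737, plus strand): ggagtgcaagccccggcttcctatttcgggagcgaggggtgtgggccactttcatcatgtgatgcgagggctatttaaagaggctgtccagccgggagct
Nanog (chr6:122707389-122707488, plus strand): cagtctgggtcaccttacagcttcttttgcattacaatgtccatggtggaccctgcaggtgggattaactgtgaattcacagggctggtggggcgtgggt
Khdc3 (chr9:73102298-73102397, plus strand): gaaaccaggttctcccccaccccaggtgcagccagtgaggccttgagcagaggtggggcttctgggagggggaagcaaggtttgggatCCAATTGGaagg
Myl6 (chr10:128493887-128493986, minus strand): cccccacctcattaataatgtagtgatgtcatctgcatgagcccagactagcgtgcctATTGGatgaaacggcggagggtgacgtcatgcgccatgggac
CCAAT was in capitals for Lgals4, Cdx2, Khdc3 and Myl6, and it was read on both strands. In Khdc3 the 2 readings overlap. No CCAAT was in the same windows of Krt8, Rps23 and Sparc, which are not printed here. The windows of Krt18, Fabp3 and Nanog held no match, on either strand, to CCAAT or to the other motifs searched, TATAAA being the first and GGGCGG the second. Of all 27025 promoters in the table, over 300 bases, 14.2% held the motif TATAAA on either strand, 37.9% held the motif CCAAT and 35.9% held the motif GGGCGG.

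Some arrays stood apart in dim genes, and this bears on the results. Between 49.9% and 57.3% of spots were well above background on a blastocyst array, against 42.2% and 42.4% on the ooplast arrays, and the 75th percentile of signal was 721 to 1111 against 235 and 238. On the young replicate 2 array, 50 genes ranked within the first 5000 and were over 8-fold above every other blastocyst array, against 3, 2 and 0 such genes on the other arrays. None of the 50 was among the brightest 500, and they were picked after their values were seen. Their median level was 3.71 on young replicate 2 and -0.05, -1.34 and -0.77 on young 1, climacteric 1 and climacteric 2, while the young ooplast array read 7.74 and the climacteric ooplast array 3.81. Of the 50, 48 were over 4-fold higher on the young than on the climacteric ooplast array, against 376 of 10653 genes well above background on all 6 arrays. Clcn6, Wnk4, Vamp1, Ffar2 and Fzd5 were among them. On the climacteric replicate 1 array, Lyz2 (lysozyme of macrophages) was at 5.07 against -5.58, -3.77 and -6.02 on the others, and Zscan4c, a marker of the 2-cell stage, was at 3.54 against -2.82 to -2.65. The macrophage list summed to 45.2 times the 75th percentile there, against 5.84 to 7.28 on the other 3 arrays, with 16 of its 21 measured genes well above background against 9, 10 and 13. Most of that sum came from Lyz2, and without it the list summed to 11.7 there and to 5.82 to 7.20 on the others. The 4 of its 21 genes that no blastocyst array detected were Itgam, C1qa, Aif1 and Adgre1. The part of that signal in the results below was not tested. The cumulus list summed to 50.6 to 68.3 and the fibroblast list to 12.8 to 19.3 on the 4 arrays. On the young and the climacteric ooplast array the macrophage list summed to 78.0 and 55.3, both above climacteric replicate 1, and the cumulus list to 479 and 126. How far these signals enter the comparisons with ooplasts was not tested. No macrophage, cumulus, fibroblast or 2-cell gene was among the brightest 500.

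**Figure D1:**
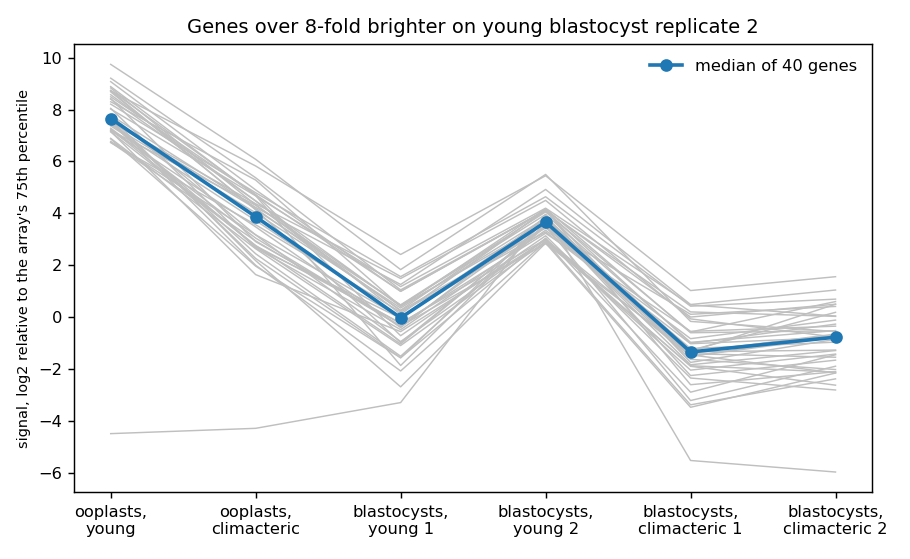
Level (log2 signal over the 75th percentile) on the 6 arrays for the 40 plain-symbol genes of the 50 that were over 8-fold brighter on young blastocyst replicate 2, one grey line per gene and their median in blue. The blue line is high on the young ooplast array and rises again on young replicate 2 alone among the blastocyst arrays.

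The same genes were bright on all 4 arrays. Of the brightest 500, 411 were in the top 500 of every array, 594 genes reached it on at least 1, and pairs of arrays shared 431 to 466. The young pair and the climacteric pair, each ranked on its own, shared 469. The 500 genes carried 42.4% to 45.6% of the summed signal, and the first 100 carried 14.3% to 15.9%. Their median SD was 0.20 against 0.32 over all 14307 genes, and 412 had all 4 ranks within 2-fold of each other. The largest SD in the set was that of Ctsl, cathepsin L, a lysosomal protease at place 500, with levels of 7.38 and 7.53 on the young arrays and 6.46 and 7.67 on the climacteric arrays. The climacteric replicate 1 array was the low one. Slc39a4, a zinc transporter, also varied, with 7.19 and 7.64 against 6.59 and 7.76. Just outside the set, Serp1 at place 501 read 7.25 ± 0.14.

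**Figure D2:**
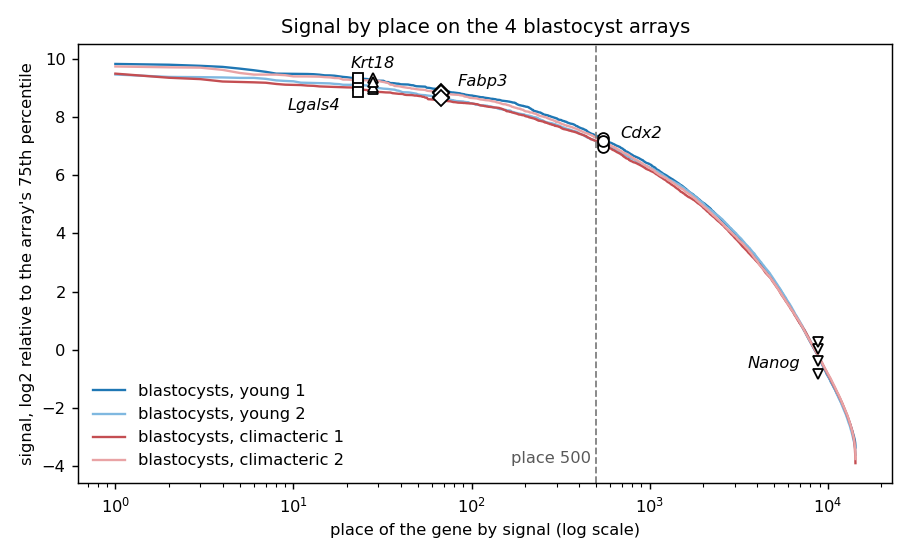
Level (log2 signal over the 75th percentile) against rank on a log axis for the genes well above background on all 4 blastocyst arrays, one curve per array sorted by its own signal, with the markers at their joint place. The 4 curves run together, Lgals4, Krt18 and Fabp3 lie in the first 100 and Nanog lies at place 8789.

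The brightest 30 plain-symbol genes had means of 9.07 to 9.60, and 20 of them were ribosomal proteins. Dppa5a, an RNA-binding protein of pluripotent cells, ranked 1 and 2 on the young arrays and 1 and 1 on the climacteric arrays. Its levels were 9.82 and 9.37 on the young and 9.48 and 9.73 on the climacteric arrays, and its spot was saturated on 3 of the 4, so there the scanner gave only a lower bound. A second Dppa5a probe read 6.98, with a mean rank of 657. Myl6, the myosin light chain of non-muscle cells, followed at place 4 with 9.60, 9.22, 9.19 and 9.51. Mt2, a metallothionein that binds zinc and copper, read 9.55 and 9.08 on the young and 9.21 and 9.45 on the climacteric arrays. Its ooplast levels were 2.97 and 1.96. Hsp90aa1, a chaperone, read 9.21 ± 0.21, and Mdh2, malate dehydrogenase of mitochondria, read 9.14 ± 0.23. All 30 ranked within the first 55 on every array. Of the 30, 9 were saturated on at least 1 array, Mt2 on 2 and Myl6 on 1, so those levels are lower bounds and the order at the top is uncertain.

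Ribosomal proteins formed the largest listed group, with 61 of 81 measured genes in the brightest 500 and 36 in the brightest 100. Their median level was 8.37 against 0.79 over all detected genes, and together they gave 7.77% to 8.72% of the signal on an array. Rpl23a read 9.72 and 9.45 on the young and 9.30 and 9.69 on the climacteric arrays, and Rps23 read 9.75, 9.34, 9.34 and 9.70. The young and climacteric arrays overlapped in both genes. The other 20 ranged from place 1005 (Rpl18) to 8535 (Rpl4, at -0.08), and only Rpl4 lay below the middle of the detected genes. Eif1, which selects the start codon, led the translation factors with 8.70 ± 0.11, and 14 of 46 factors were in the set. A second Eif1 probe read 1.21.

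Genes of oxidative phosphorylation, the respiratory chain and ATP synthase, were next, with 45 of 80 in the set and a median level of 7.65. Ndufa13 of complex I read 9.04, 8.84, 8.56 and 9.03 in the order young 1 and 2, climacteric 1 and 2. Atp5g3 of the ATP synthase ring read 8.81 ± 0.13 and Cox5b of cytochrome oxidase read 8.78 ± 0.20. The 3 mitochondria-encoded genes were bright as well, at places 21 (COX2), 40 (CYTB) and 62 (ND4L), a family picked by name after the ranking was seen. Their ooplast levels were higher, with COX2 at 10.84 and 10.90 against 9.16 ± 0.20. Of 27 glycolysis genes 1 was in the set (3.70%, against 1.81% of all genes). It was the aldolase Aldoa at place 35, with 9.05, 8.98, 8.85 and 9.05. All 27 were well above background on all 4 arrays, against 51.9% of all genes, with a median level of 2.78. Gpi1 lay just outside the set at place 504.

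**Figure D3:**
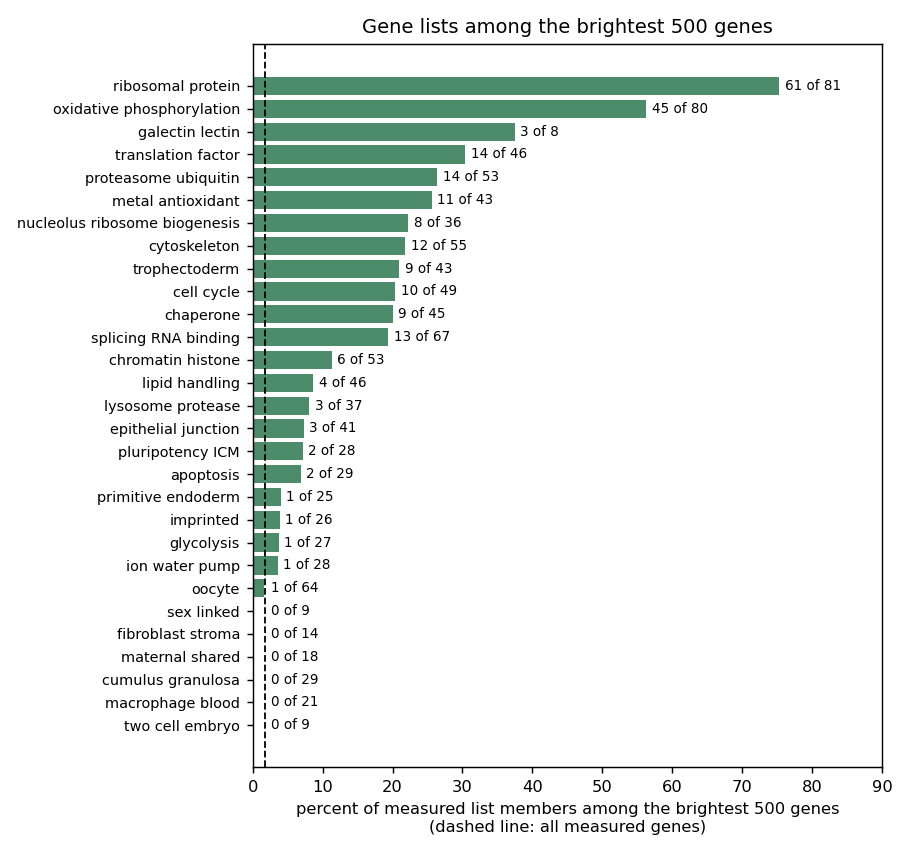
Percent of each list's measured genes that lay among the brightest 500 of the blastocyst arrays, with the number of such genes beside the number measured. Ribosomal proteins (61 of 81) and oxidative phosphorylation (45 of 80) lead, against 1.81% of all genes.

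Smaller groups were counted in the same way, against the 1.81% of all genes that lay in the set. The set held 14 of 53 proteasome and ubiquitin genes, among them the proteasome subunit Psmb3 (8.54 ± 0.11). It held 11 of 43 metal and antioxidant genes, among them Sod1 and Sod2, the superoxide dismutases, at places 38 and 63. It held 12 of 55 cytoskeleton genes, with Tuba1c at place 46, and 9 of 45 chaperones. Of 67 splicing and RNA-binding genes 13 were in it, Snrpg at place 48. Of 49 cell cycle genes 10 were in it, and Cdc20, the activator of the anaphase-promoting complex, read 8.67, 8.27, 8.43 and 8.49. The histone H3.3 genes H3f3a and H3f3b were at places 83 and 88. Other probes read 1.04 and 1.03 for H3f3a and 7.18 and 0.53 for H3f3b. Imprinted genes had 1 of 26 (3.85%), Nap1l4 (7.49 ± 0.21), whose other probes read 0.33 and -3.15.

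Of the 3 lineage lists, trophectoderm had the most genes in the set, 9 of 43, and 16 lay within place 1000. Their median level was 4.50, against 2.53 for the pluripotency list, 1.74 for the primitive endoderm list and 0.79 for all detected genes. The lists were chosen with earlier results of these data known, so the choice of members may have set this order in part. Lgals4, a galectin of epithelia that binds sugars, ranked 29 and 20 on the young arrays and 32 and 19 on the climacteric arrays. Its levels were 9.27, 9.10, 8.87 and 9.33, while the ooplast arrays read -2.88 and -2.49. A second Lgals4 probe read 3.44, so the choice of probe decides its place. Krt18 read 9.34, 8.96, 9.02 and 9.20, and its partner Krt8 read 8.99, 8.83, 8.74 and 9.02. Fabp3, a carrier of fatty acids, read 8.84 and 8.69 on the young and 8.81 and 8.63 on the climacteric arrays. The young and climacteric arrays overlapped in all 4 of these genes. The files place the Lgals4 probe at chr7:28550399-28550458, Krt18 at chr15:101859944-101860003, Fabp3 at chr4:129817668-129817727, Cdx2 at chr5:147611320-147611379 and Nanog at chr6:122679692-122679751 (mm8). Whether these lie in exons or UTRs was not analysed here.

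Lgals6, Wfdc2 and Rhox5 read 8.59 ± 0.20, 8.54 ± 0.18 and 8.41 ± 0.14. Lgals6 is a close copy of Lgals4, so a probe may read both. Cdx2 lay just outside the 500 at place 547, with ranks of 568, 599, 613 and 575 and levels of 7.27, 7.05, 6.98 and 7.17. Rhox5 is itself a homeobox factor. Other factors of the list that were dimmer than Cdx2 included Gata2 at 5.96 ± 0.22, Tfap2c 5.10 ± 0.15, Tead4 4.57 ± 0.50, Elf5 4.43 ± 0.75 and Eomes 3.07 ± 0.39. Elf5 differed between the young arrays, at 5.18 and 3.41, by more than the climacteric arrays did from each other, at 4.70 and 4.40. Hand1 (0.08 ± 0.24) was near the 75th percentile.

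The pluripotency list had 23 of 28 measured genes (82.1%) well above background on all 4 arrays, against 51.9% of all genes, and 2 in the set. These were Dppa5a and Dppa3, a maternal-effect gene also present in ooplasts, where it read 8.14 and 7.66. Dppa3 read 7.17 and 7.89 on the young and 7.42 and 7.59 on the climacteric blastocyst arrays, so the young arrays enclosed the climacteric ones. Zfp42 read 6.50 ± 0.23, Klf4 5.60 ± 0.66 and Pou5f1, the factor Oct4, 2.53 ± 0.51. Nanog read -0.84 and 0.04 on the young and 0.27 and -0.39 on the climacteric arrays, below the 75th percentile on average (-0.23 ± 0.49), with ranks from 9595 to 12351. Sox2 was at -1.11 ± 0.08. Both were seen on all 4 arrays, but a dim probe says little of the transcript's amount.

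Primitive endoderm had 19 of 25 genes (76.0%) well above background on all 4 arrays, against 51.9% of all genes, and 1 in the set. This was Sparc, a matrix protein, at 7.68, 7.27, 7.53 and 7.65. Lamc1, a laminin chain, read 6.39 ± 0.35, and Gata6, the lineage factor, 5.82 ± 0.13. Other probes were dimmer, at 2.27 for Sparc and at -2.67 and -3.29 for Gata6, so the choice of probe decides their places. Sox17 spread more over the arrays, with 3.93 and 1.72 on the young and 3.80 and 2.84 on the climacteric arrays. Both replicate 2 arrays were lower. Gata4 and Sox7 were well above background on 3 arrays and Ttr on none.

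**Figure D4:**
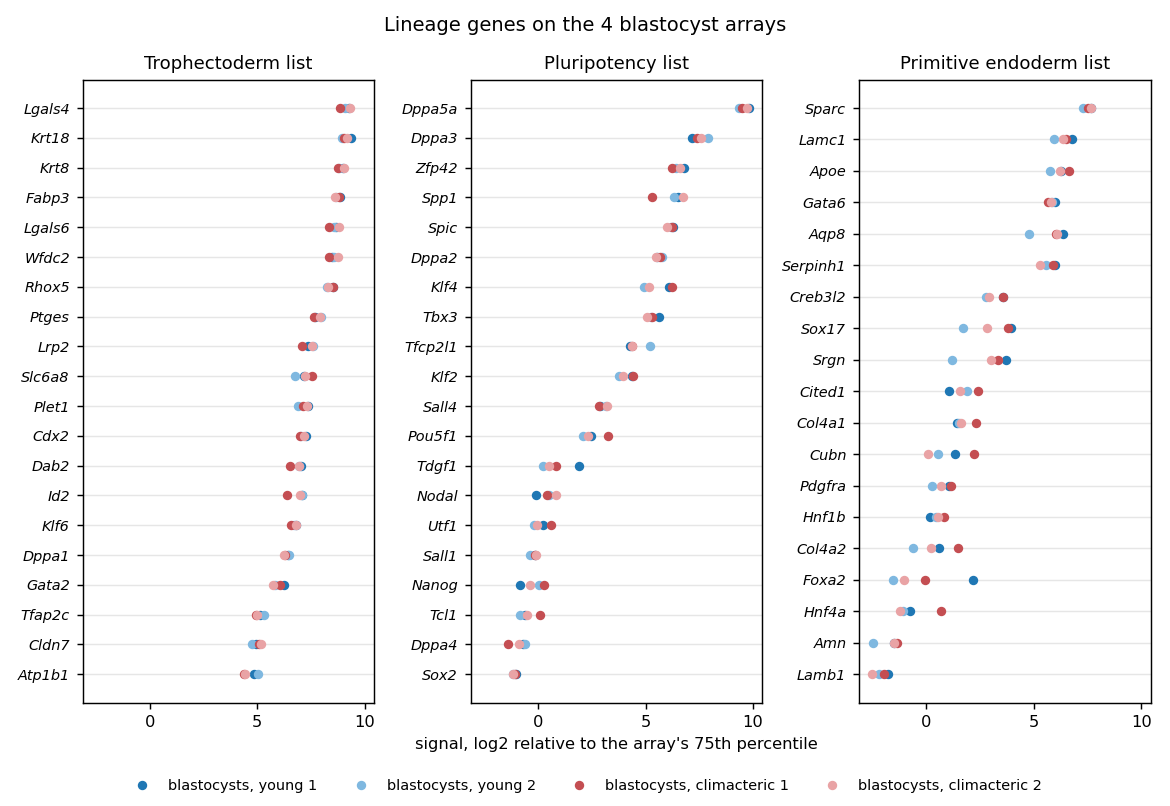
Level (log2 signal over the 75th percentile) on each of the 4 blastocyst arrays for up to 20 members of the trophectoderm, pluripotency and primitive endoderm lists, those with the best mean rank among genes well above background on all 4, one point per array. Lgals4, Krt18 and Fabp3 sit near 9 on every array, Cdx2 near 7 and Nanog near 0.

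Several genes on no list were also bright, and they were picked after their values were seen. Odc1, which makes polyamines, read 8.91 ± 0.16, and Akr1b8, an aldo-keto reductase, read 9.10, 8.94, 8.46 and 8.93. Apoc1, an apolipoprotein, read 8.58 ± 0.15. Slc5a11, a sodium-coupled inositol transporter, read 7.92 ± 0.16, against -4.37 and -3.93 on the ooplast arrays. Fbxo15, expressed in pluripotent cells, was at 7.99 ± 0.10 and Folr1, a folate receptor, at 7.77 ± 0.22. In all, 226 of the 500 were on a list and 274 were not. On the ooplast arrays 489 of the 500 were detected on both, 121 were in the ooplast top 500, and 7 were not well above background on either.

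Oocyte transcripts were sought next. Of 64 measured oocyte genes, 26 (40.6%) were well above background on all 4 blastocyst arrays, 15 on 1 to 3 and 23 on none. Both ooplast arrays detected 60 of them. Over all 27591 genes, 51.9% were well above background on all 4 blastocyst arrays and 9301 genes on none. Both ooplast arrays detected 44.5% of all genes. Of the 64 oocyte genes 1 was in the brightest 500 (1.56%, against 1.81% of all genes). The median level of the 26 detected oocyte genes was -0.03. In a limma fit over all 6 arrays with age as a term (Benjamini-Hochberg adjusted p under 0.05), 39.0% of 15606 genes were lower in blastocysts and 35.5% were higher. The median of all genes was -0.26 on the log2 scale, and -0.48 with scaling over detected probes. Of 60 oocyte genes tested, 56 were lower in blastocysts and 2 were higher. Of the 60, 34 were not well above background on all 6 arrays and so entered only through the ooplast arrays, where they were detected, which favours a lower call. Among the 26 that were, 22 were lower and 2 higher, against 44.9% lower and 29.4% higher of the 10908 genes so detected. The ooplast groups had 1 array each, so all groups shared one estimate of the spread.

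Khdc3, part of the maternal complex beneath the oocyte membrane, was the one gene of the oocyte list in the brightest 500, at place 36. Dppa3 at place 400, also present in ooplasts, was counted with the pluripotency list instead. The Khdc3 levels were 9.05 and 8.96 on the young and 8.79 and 9.16 on the climacteric arrays, against 5.08 and 5.31 on the ooplast arrays, with no overlap. The log2 difference was 3.79 ± 0.25 (SE; limma adjusted p = 3.64e-05). Ftdc2 was the other, by 0.69 ± 0.26 (SE; limma adjusted p = 0.0465), and it passed under 4 of the 17 processing settings tried. The Khdc3 partners went the other way or did not pass. Ooep differed by -1.18 ± 0.36 (SE; limma adjusted p = 0.0248), which passed under 10 of the 17 settings, and Tle6 by -5.52 ± 0.31 (SE; limma adjusted p = 2.1e-05). Nlrp5, another partner, was detected on 0 of the 4 blastocyst arrays. Ooep read 3.96, 3.51, 4.49 and 3.90 on the blastocyst arrays and 5.46 and 4.83 on the ooplast arrays.

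Ybx2, a protein that packages stored mRNA, was the next brightest at 5.73, 5.89, 6.21 and 6.07, against 7.35 and 8.09 in ooplasts. It fell by 1.74 ± 0.25 (SE; limma adjusted p = 0.000962). Cpeb1, which regulates poly(A) tails, read 4.96 and 5.70 on the young and 3.02 and 3.05 on the climacteric arrays, so the ages did not overlap. Its age difference of -2.29 ± 0.35 (SE) did not pass across all genes (limma adjusted p = 0.575). Against ooplasts (9.25 and 8.02) it fell by 4.45 ± 0.36 (SE; limma adjusted p = 7.75e-05). H1f8, the oocyte linker histone, read 2.21, 2.92, 1.76 and 1.74 against 11.2 on both ooplast arrays and fell by 9.05 ± 0.34 (SE; limma adjusted p = 9.43e-06). Gdf9, a growth factor of the oocyte, fell by 9.96 ± 0.29 (SE; limma adjusted p = 7.0e-06) and still read 0.93 ± 0.37. Patl2 differed by -0.30 ± 0.69 (SE) and Nlrp4c by -0.69 ± 0.32 (SE), neither passing (limma adjusted p = 0.702 and 0.0924). Nlrp4c passed under 4 of the 17 settings, and Patl2 under 2 of them, the replicate block and the slide block, which are the same fit. Some genes gave only a bound because no blastocyst array detected them. Compared with ooplasts Zar1 was at least 3464-fold lower, Btg4 at least 1097-fold lower and Oog3 at least 8414-fold lower. Each bound sets the ooplast mean against a blastocyst mean in which every array's value is the higher of the probe's own signal and that array's lowest signal well above background.

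**Figure D5:**
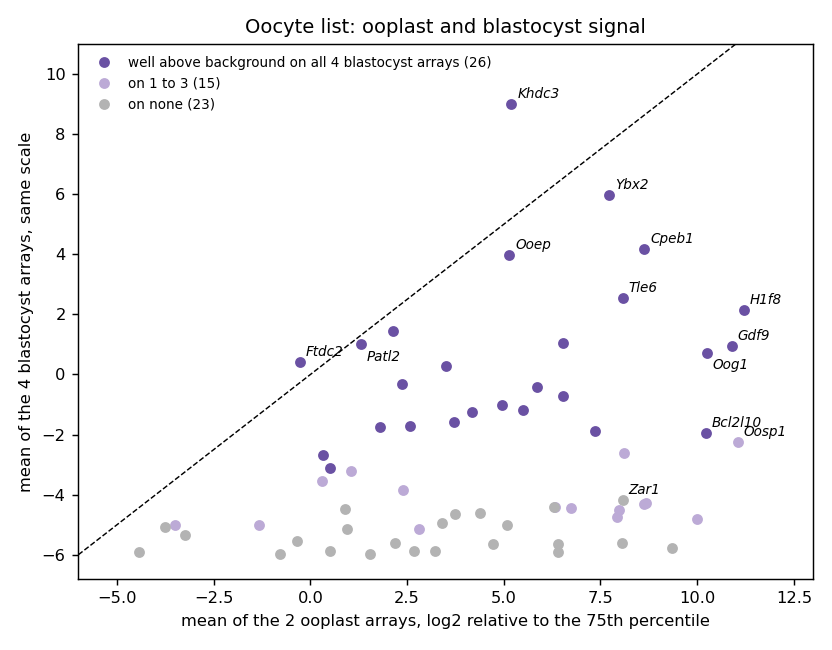
Mean level (log2 signal over the 75th percentile) of the 64 oocyte list members on the 2 ooplast arrays (x axis) and on the 4 blastocyst arrays (y axis), one point per gene, coloured by the number of blastocyst arrays on which it was well above background, with a dashed line of equal level. Khdc3 and Ftdc2 lie above the line, and H1f8 and Gdf9 lie far below it.

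Age was tested over the 4 blastocyst arrays to see whether bright genes differed between young and climacteric. Of 14307 genes, 0 passed (limma, Benjamini-Hochberg; 0% called, smallest adjusted p 0.575), and 665 (4.65%) had an unadjusted p under 0.05. None of the brightest 500 had an unadjusted p under 0.05. Their median absolute log2 difference was 0.10 against 0.23 over all genes. The fit drew each gene's spread toward that of all genes, whose median SD was 0.32 against 0.20 in the set. It was therefore strict for the brightest 500, and the lack of a low p there does not show that bright genes were alike. Among plain symbols, Erdr1 read 8.65 and 8.03 on the young and 7.52 and 7.95 on the climacteric arrays, a difference of -0.61 ± 0.35 (SE; limma adjusted p = 1.00). Without young replicate 1 the fit called 91 genes, 90 of them lower in climacteric blastocysts, on 1 residual degree of freedom, and none was in the brightest 500. The young group was then the single array of young replicate 2, assumed to vary like the 2 climacteric arrays. Of the 91 genes, 44 were over 8-fold brighter on that array than on every other blastocyst array. With 2 arrays a group, a p that misses the threshold does not show that the ages were alike. On simulated data the age fit recovered 0% of planted 4-fold changes, 16% of 8-fold and 40% of 16-fold changes.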

How the data were processed

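Spot intensity was extracted by the authors with Agilent Feature Extraction 9.5, per the submitters' processing notes, and per the file headers the processed signal was background-subtracted, with probes placed on mm8. Flags for background and saturation (other values) were read as deposited. The authors' deposited table of log2 values served as an alternative.

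Within an array, probes were ranked on processed signal, and probes counted as detected if flagged well above background on each of the 4 blastocyst arrays. The probe with the best mean rank stood for its gene. Levels are log2 signals minus each array's 75th percentile. Age (4 arrays) and stage (6 arrays) were fitted with limma 3.58.1 in R 4.3.3 (lmFit, eBayes, two-sided, Benjamini-Hochberg, 0.05), tested on simulated data. Of planted changes of 2-, 4-, 8- and 16-fold, the age fit recovered 0%, 0%, 16% and 40%. The stage fit recovered 0%, 40%, 72% and 74%. A p-value sets a difference against the estimated spread between these samples. The number of arrays limits the precision.

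Members and the 29 gene lists were chosen with earlier results of these data known. Named genes were the 5 markers, the 30 brightest plain symbols, up to 4 members a list, lineage members, the 20 brightest oocyte genes, and genes with extreme spread, low ooplast signal or a place near 500. Clone, accession, predicted and RIKEN names were passed over. Genes outside that rule are named as such, and some genes that it named are not reported here. Gene names follow RefSeq (GRCm38.p6). Alternatives covered background correction, scaling, probe choice, filters, slide and each replicate left out.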

Additional observations from a re-analysis of the deposited data

Results flagged for a closer look

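In groups of 4 blastocyst arrays, 237 named genes were checked for an array set apart from the other 3, and 10 (4.22%) had one. Chance gives about 1 in 20. Of the 10, 6 lay on climacteric replicate 1, 3 on young replicate 2, 1 on young replicate 1 and 0 on climacteric replicate 2.

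On climacteric replicate 1, the ribosomal protein Fau was low, at 9.10 against 9.36 to 9.41. On the same array Elf3, an epithelial transcription factor, read 4.17 against 2.96 to 3.02, and Id2, an inhibitor of helix-loop-helix factors, read 6.37 against 7.0 to 7.07. Zscan4c read 3.54 there against -2.82 to -2.65, and Cd68, a macrophage gene, read 0.30 against -0.51 to -0.37. Hk2, hexokinase 2, read 6.48 against 6.69 to 6.71.

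On young replicate 2, Tfcp2l1, a pluripotency factor, read 5.23 against 4.26 to 4.36. Amn read -2.47 there against -1.51 to -1.35, and Tcl1b3 read -1.42 against -0.93 to -0.88. On young replicate 1, Cox7c of cytochrome oxidase read 7.39 against 7.19 to 7.21.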

How the results depend on the processing

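Across 130 alternatives of the main results, 119 kept direction and size, 8 moved, 2 were weaker, 1 was stronger and 0 reversed. With normexp background correction the mean rank of Cdx2 was 519.5, of Lgals4 40.5 and of Krt18 20.2. With the worst of the 4 ranks, Cdx2 was at 613, Lgals4 at 32, Fabp3 at 113 and Nanog at 12351. Under these 2 settings Cdx2 entered the brightest 500, at places 483 and 476. With the dimmest probe standing for its gene, Lgals4 had a mean rank of 3974, 333 of the 500 genes were shared and ribosomal proteins had 39 in the set. Leaving out each replicate gave 486 to 494 shared genes, 26 to 28 oocyte genes detected and 55 to 56 oocyte genes lower in blastocysts. Leaving out a replicate gave 0 to 91 age calls, the 91 without young replicate 1. The 56 oocyte genes became 22 when only probes detected on each of the 6 arrays entered, since 26 were then tested. For single genes and list counts, 423 of 481 alternatives kept their side, 42 were weaker, 16 stronger and 0 reversed. With the replicate block (equal to the slide block), age gave 0 calls and 920 unadjusted, and 56 oocyte genes were lower; Ooep (adjusted p = 0.0873 by limma) and Ftdc2 (0.78, adjusted p = 0.0673) no longer passed, which left 1 oocyte gene higher, and Patl2 did pass (-1.19, adjusted p = 0.0395). The deviations of the same-numbered blastocyst arrays correlated at 0.184 over 2 pairs, too few to show pairing. Within slide 1, an alternative chosen after seeing the data, 55 oocyte genes were lower. Saturated spots and signals near background limit what brightness shows.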

Other observations

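Families taken by gene name after the ranking was seen add further values. Mitochondrial ribosomal proteins, which translate the mitochondrial genome, had 10 of 78 measured genes among the brightest 500, and cytosolic ones had 61 of 81. All 17 tricarboxylic acid cycle genes were well above background on all 4 blastocyst arrays, against 51.9% of all genes. Of the 17, 5 were in the set, among them Mdh2 at place 26, Idh3g at 277, Sucla2 at 396 and the citrate synthase Cs at 498. Subunits of the anaphase-promoting complex, which ends mitosis, had 3 of 10, RNA polymerase subunits 4 of 28, mitochondrial carriers 3 of 46 and mitochondrial import genes 2 of 25. No test was run on these families.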
